A study of Homo sapiens with 6 samples.

Results

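Angiogenin and 4 further genes of tRNA cleavage were followed in colorectal cancer cells in which the transcription factor gene POU2F1 had been knocked down. The 5 genes, ANG, RNASE4, RNH1, RNASET2 and SLFN11, were taken by their symbols from a table of 20474 annotated genes, and all 5 were found. HCT116, an established human colorectal carcinoma line, received an siRNA against POU2F1 (siPOU2F1, genotype label "POU2F1 knockdown") or a control siRNA (sicontrol, genotype label "WT"), and total RNA was harvested 48 h after transfection. Each group held 3 libraries of polyA RNA, each made from 2 µg of total RNA. The comparison belongs to a study of genetic control over tRNA-derived fragments, and asks how these cells differ once POU2F1, which encodes the octamer-binding factor OCT1, is lowered. Separate cultures are not stated in the labels, nor is the number of siRNAs, so the p-values describe the scatter of these 6 libraries and that scatter may be technical.

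Angiogenin, the product of ANG, is a secreted ribonuclease of the RNase A family that cells also take up. In stressed cells it cuts mature tRNAs in the anticodon loop and so makes tRNA-derived fragments. RNASE4 encodes another secreted RNase A enzyme from the same locus. RNH1 encodes the ribonuclease inhibitor, a leucine-rich repeat protein of the cytosol that binds RNase A enzymes, angiogenin included, very tightly and blocks them. RNASET2 encodes the acidic RNase T2 of lysosomes and secretions, and SLFN11 encodes a Schlafen-family endonuclease that cuts certain tRNAs after DNA damage. The RNAs measured here were polyadenylated, so neither tRNAs nor their fragments were measured.

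ANG and RNASE4 lie beside a tRNA gene cluster and share exonic sequence at their start. ANG (ENSG00000214274) spans 20684177 to 20698971 and RNASE4 (ENSG00000258818) spans 20684100 to 20701215, both on the plus strand of chromosome 14 (GRCh38, the same build as hg38, GENCODE release 29). The genes share 675 exonic bases, which is 51.0% of the exonic bases of ANG and 25.8% of those of RNASE4. Their coding parts do not overlap: the 441 coding bases of ANG lie in exon 2 at 20693565 to 20694005, and the 441 coding bases of RNASE4 lie at 20699372 to 20699812, 5366 bases further on. A further annotated gene, ENSG00000259171 (20684587 to 20700576, same strand), joins part of the first exon and of the coding exon of ANG to the last exon of RNASE4. It shares 93.1% of its 1498 exonic bases with RNASE4 and 18.4% with ANG, so the reads of the 3 genes cannot be assigned with certainty.

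The stretches printed here are the annotated starts of the pair. They are shown because a tRNA gene lies in the first and both genes use the other windows. RefSeq lists the first window for ANG alone, but a GENCODE transcript of RNASE4 starts inside it, at 20684100. RefSeq (GRCh38.p14) gives 3 start windows for ANG, each 250 bases before and 50 after a start, and 2 for RNASE4, and both windows of RNASE4 are also windows of ANG. In the first sequence the capitals mark TRP-TGG3-2, a proline tRNA gene of 72 bases at 20684016 to 20684087. In the other sequences they mark the 50 bases from the annotated start on. All 3 are on the plus strand.
ANG start window, chr14:20683927-20684226: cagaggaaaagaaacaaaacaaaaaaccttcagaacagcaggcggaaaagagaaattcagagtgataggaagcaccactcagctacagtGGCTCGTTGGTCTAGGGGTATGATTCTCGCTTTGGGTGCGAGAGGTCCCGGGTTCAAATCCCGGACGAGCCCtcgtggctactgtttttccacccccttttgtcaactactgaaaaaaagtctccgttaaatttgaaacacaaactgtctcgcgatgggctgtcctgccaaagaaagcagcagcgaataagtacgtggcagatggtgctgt
Shared ANG and RNASE4 start window, chr14:20684310-20684609: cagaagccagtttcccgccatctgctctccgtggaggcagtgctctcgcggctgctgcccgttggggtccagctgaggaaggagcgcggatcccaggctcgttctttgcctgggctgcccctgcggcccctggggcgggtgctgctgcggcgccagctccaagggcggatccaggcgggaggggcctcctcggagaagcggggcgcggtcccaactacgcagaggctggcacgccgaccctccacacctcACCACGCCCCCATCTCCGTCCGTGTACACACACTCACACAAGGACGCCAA
Shared ANG and RNASE4 start window, chr14:20688514-20688813: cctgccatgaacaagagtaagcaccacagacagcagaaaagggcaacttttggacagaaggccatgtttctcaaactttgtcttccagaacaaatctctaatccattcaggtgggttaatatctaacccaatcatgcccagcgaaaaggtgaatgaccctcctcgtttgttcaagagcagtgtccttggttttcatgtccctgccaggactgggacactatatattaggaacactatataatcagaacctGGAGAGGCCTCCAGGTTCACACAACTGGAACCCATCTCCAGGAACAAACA
The tRNA gene ends 89 bases before the start of ANG, and the GENCODE start of RNASE4 at 20684100 lies between them. Within 100 kb of the ANG start RefSeq lists 14 tRNA genes, all of them before ANG. The same 14 lie within 100 kb of its RNASE4 start, against 0 within 100 kb of the starts of RNH1, RNASET2 and SLFN11. A whole tRNA gene inside such a window was rare: it was found for 2 of the 9578 tested genes that matched the promoter table by symbol (0.0209%), ANG and SHF. The octamer ATGCAAAT, the sequence that OCT1 recognises, was searched on both strands and was present in 0 of the 7 distinct windows of the 5 genes and in 1.77% of 34943 windows overall. Its first 6 bases, ATGCAA, which every octamer match also holds, were present in 1 of the 7, that of SLFN11, and in 10.1% of all windows. The letters GTTCNANNC, the internal B box of tRNA genes, were present in 2 of the 7, inside the tRNA gene of the first ANG window at 20684067 to 20684075 and in a window of RNH1, and in 7.49% of all windows.

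The knockdown was visible in its target. POU2F1 measured 1.87, 1.69 and 1.73 FPKM (fragments scaled by transcript length and by the mapped fragments of the library) in siPOU2F1 replicates 1 to 3, against 4.16, 3.60 and 4.26 FPKM in sicontrol replicates 1 to 3. POU2F1 fell, with a log2 fold change (siPOU2F1 minus sicontrol on the log2(FPKM + 0.5) scale) of -0.99 and SE 0.14 (limma, adjusted p = 0.0333). The call needed every library except siPOU2F1 replicate 3: removing each of the other 5 in turn gave POU2F1 adjusted p-values of 0.114 to 0.222 (limma). Those 5 fits called only 0 to 9 annotated genes in all. The POU2F1 log2 fold change stayed between -1.06 and -0.95 with any 1 library left out.

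The libraries did not group by siRNA alone. On the first principal component of the 11831 tested genes (60.4% of the variance), siPOU2F1 replicates 1 to 3 lay at -0.55, -0.53 and 0.31 and sicontrol replicates 1 to 3 at 0.20, 0.53 and 0.05, so siPOU2F1 replicate 3 lay within the sicontrol range. On the second component (18.9%) it lay at 0.76, apart from the other siPOU2F1 libraries (0.07 and 0.11) and from the sicontrol libraries (-0.44, -0.04 and -0.46). Of 8 colorectal epithelial markers, 7 averaged at least 1 FPKM, and their summed level was 3740 to 5166 FPKM in siPOU2F1 and 2705 to 3627 FPKM in sicontrol libraries. The fibroblast list summed to 1.88 to 3.69 FPKM in siPOU2F1 and 2.17 to 2.69 FPKM in sicontrol, with DCN and COL3A1 at 0, and COL1A1 alone of its 6 genes averaging at least 1 FPKM. The endothelial list (0 of 5 genes at that level) summed to 0.597 to 0.907 FPKM in siPOU2F1 and 0.884 to 1.08 FPKM in sicontrol. The leukocyte list (1 of 6, CD68, with PTPRC at 0) summed to 5.60 to 6.77 FPKM in siPOU2F1 and 5.29 to 6.79 FPKM in sicontrol, and the hepatocyte list (1 of 4, SERPINA1, with TTR and APOA2 at 0) to 162 to 196 FPKM in siPOU2F1 and 231 to 255 FPKM in sicontrol. In bulk RNA, fewer cells of a kind and less RNA per cell cannot be told apart. The part that the marker levels or the library axis play in the results on ANG and RNASE4 was not tested.

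The 5 genes covered a wide range of levels in FPKM, which is scaled by transcript length. RNH1 was the highest, with a mean over all libraries of 40.9 FPKM, above 91.2% of annotated genes. RNASET2 followed with 6.09 FPKM (above 60.6%), ANG with 2.72 FPKM (50.1%), RNASE4 with 2.60 FPKM (49.7%) and SLFN11 with 0.827 FPKM (41.1%). RNH1 exceeded RNASET2, RNASET2 exceeded ANG and RNASE4 exceeded SLFN11 in 6 of 6 libraries. ANG and RNASE4 could not be ordered: ANG was the higher of the pair in 1 of the siPOU2F1 libraries and in 3 of the sicontrol libraries.

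ANG was higher in every siPOU2F1 library than in any sicontrol library, without passing the test across all genes. It measured 4.23, 3.67 and 2.52 FPKM in siPOU2F1 replicates 1 to 3, against 2.02, 1.73 and 2.18 FPKM in sicontrol replicates 1 to 3. The groups did not overlap, but siPOU2F1 replicate 3 lay close to the highest sicontrol library. The means were 3.47 ± 0.873 FPKM in siPOU2F1 and 1.98 ± 0.228 FPKM in sicontrol (SD, n = 3 each), with a log2 fold change of 0.66, SE 0.21 and 95% interval 0.18 to 1.15 (limma, adjusted p = 0.171).

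RNASE4 showed the same pattern, with a larger estimate whose interval overlapped that of ANG. It measured 4.88, 4.06 and 2.12 FPKM in siPOU2F1 replicates 1 to 3, against 1.90, 0.931 and 1.72 FPKM in sicontrol replicates 1 to 3. Again siPOU2F1 replicate 3 was the lowest of its group and stood just above sicontrol replicate 1. The means were 3.69 ± 1.42 FPKM in siPOU2F1 and 1.52 ± 0.517 FPKM in sicontrol (SD, n = 3 each), and the log2 fold change was 1.02, SE 0.32, 95% interval 0.26 to 1.79 (limma, adjusted p = 0.177). Among the 11831 tested genes 66 had a larger positive log2 fold change than RNASE4 and 328 a larger one than ANG.

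**Figure D1:**
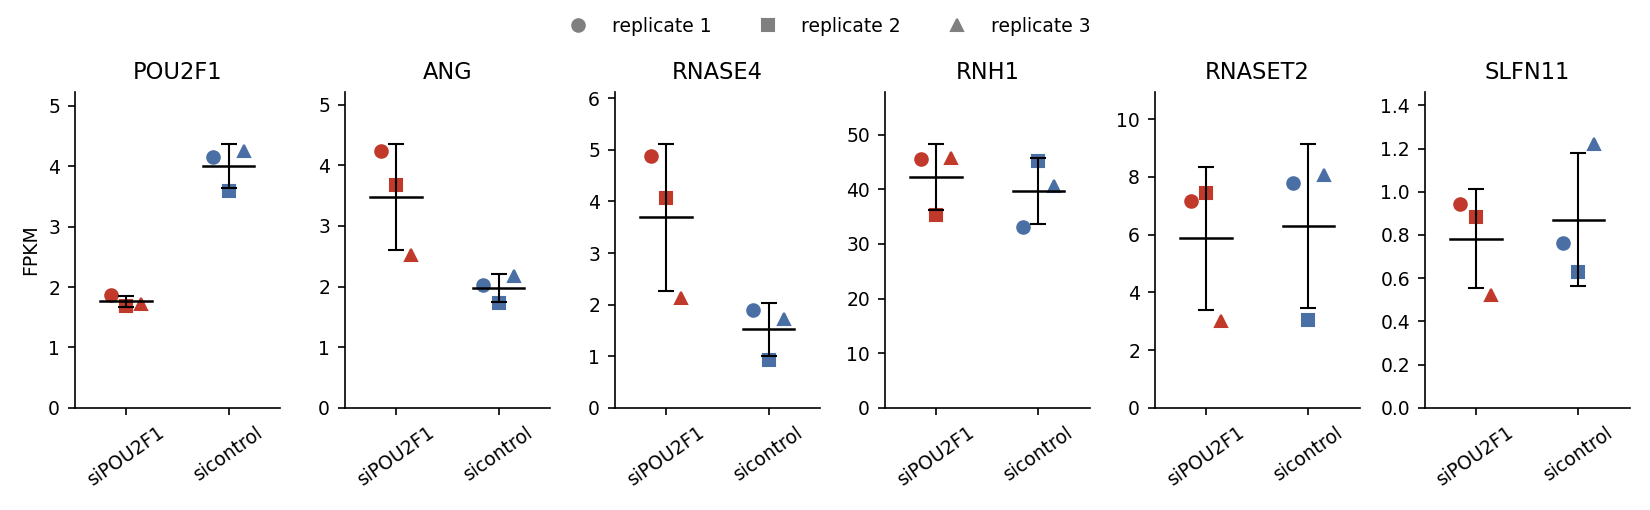
FPKM of POU2F1 and the 5 genes in each library, siPOU2F1 in red and sicontrol in blue, with marker shape for the replicate number, horizontal lines for means and bars for SD (n = 3). The groups separate for POU2F1, ANG and RNASE4 and overlap for RNH1, RNASET2 and SLFN11, and RNASET2 shows 1 library of each group near 3 FPKM.

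Because ANG and RNASE4 share exons, they were also read as a sum. The sum was 9.12, 7.73 and 4.64 FPKM in siPOU2F1 replicates 1 to 3, against 3.92, 2.66 and 3.90 FPKM in sicontrol replicates 1 to 3, and the groups did not overlap. On the log2 scale the sum was higher by 0.91, SE 0.26 (limma, adjusted p = 0.153). The exact two-sided permutation p was 0.1 for ANG, for RNASE4 and for the sum, and no smaller p is possible with groups of 3. ANG made up 46.4%, 47.4% and 54.3% of the sum in siPOU2F1 replicates 1 to 3, against 51.5%, 65.0% and 55.9% in sicontrol replicates 1 to 3. These shares overlapped between the groups (exact two-sided permutation p = 0.2).

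The groups overlapped once ENSG00000259171 was added, a step taken after its values were seen. That gene was listed at 0 in siPOU2F1 replicates 1 and 3 and at 2.73 FPKM in replicate 2, against 1.06, 0.953 and 1.93 FPKM in sicontrol replicates 1 to 3. How the reads of the overlapping genes were divided was not tested. With it the sum was 9.12, 10.5 and 4.64 FPKM in siPOU2F1 replicates 1 to 3, against 4.98, 3.61 and 5.84 FPKM in sicontrol replicates 1 to 3, so that siPOU2F1 replicate 3 lay within the sicontrol range. For this wider sum the log2 fold change was 0.64, SE 0.31 (limma, adjusted p = 0.321).

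**Figure D2:**
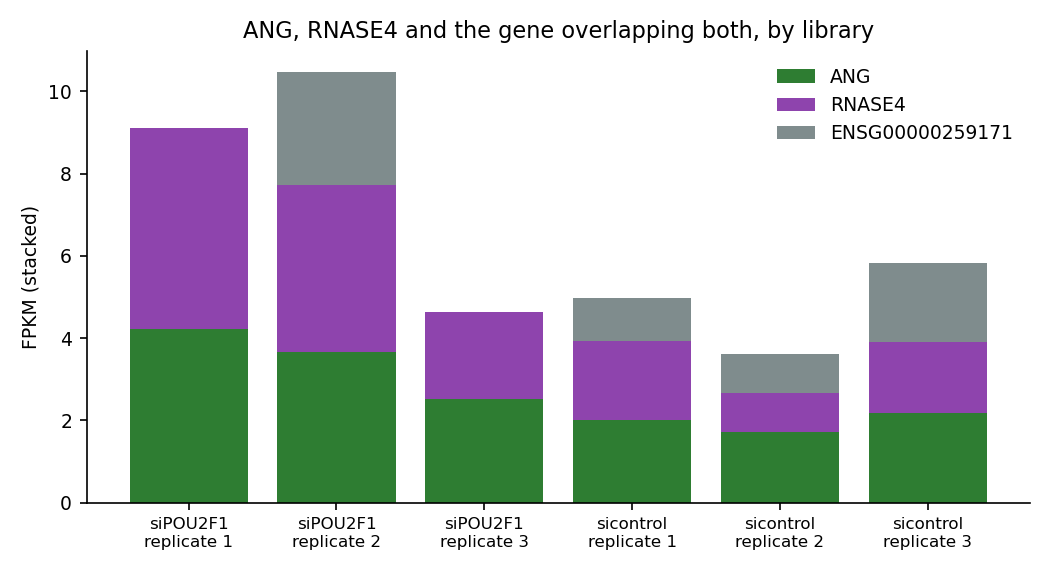
Stacked bars give the FPKM of ANG, RNASE4 and ENSG00000259171 in each of the 6 libraries. The ANG and RNASE4 parts are tallest in siPOU2F1 replicates 1 and 2, and the part of ENSG00000259171 is absent in siPOU2F1 replicates 1 and 3.

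Of the 5 genes 4 passed the filter of a mean of at least 1 FPKM, and limma called 0 of those 4 at an adjusted p under 0.05, against 1.24% of all tested genes (0.397% called higher in siPOU2F1). At an unadjusted p under 0.05 it found 2, ANG and RNASE4, against 2143 of 11831 genes. Groups did not overlap, with siPOU2F1 the higher, for the same 2 of 4, against 11.3% of all tested genes (23.4% in either direction). The 2 share exonic bases, so they cannot be counted as independent. Whether the pair was called turned on siPOU2F1 replicate 3. Without it ANG had a log2 fold change of 0.85 (limma, adjusted p = 0.0146), RNASE4 1.33 (adjusted p = 0.0152) and their sum 1.17 (adjusted p = 0.0107), in a fit that called 25.3% of all genes. With ENSG00000259171 in the sum the value was 0.97 (limma, adjusted p = 0.0186) without that library. Leaving out any other library gave no call for ANG, RNASE4 or either sum. Hardly any gene was called there: 0 and 0 without siPOU2F1 replicates 1 and 2, and 0, 5 and 9 without sicontrol replicates 1 to 3. Weighting libraries by their scatter, which gave siPOU2F1 replicate 3 the lowest weight, also called ANG (0.78, limma adjusted p = 0.00161) and RNASE4 (1.08, adjusted p = 0.00225), but that fit called 50.4% of all genes.

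**Figure D3:**
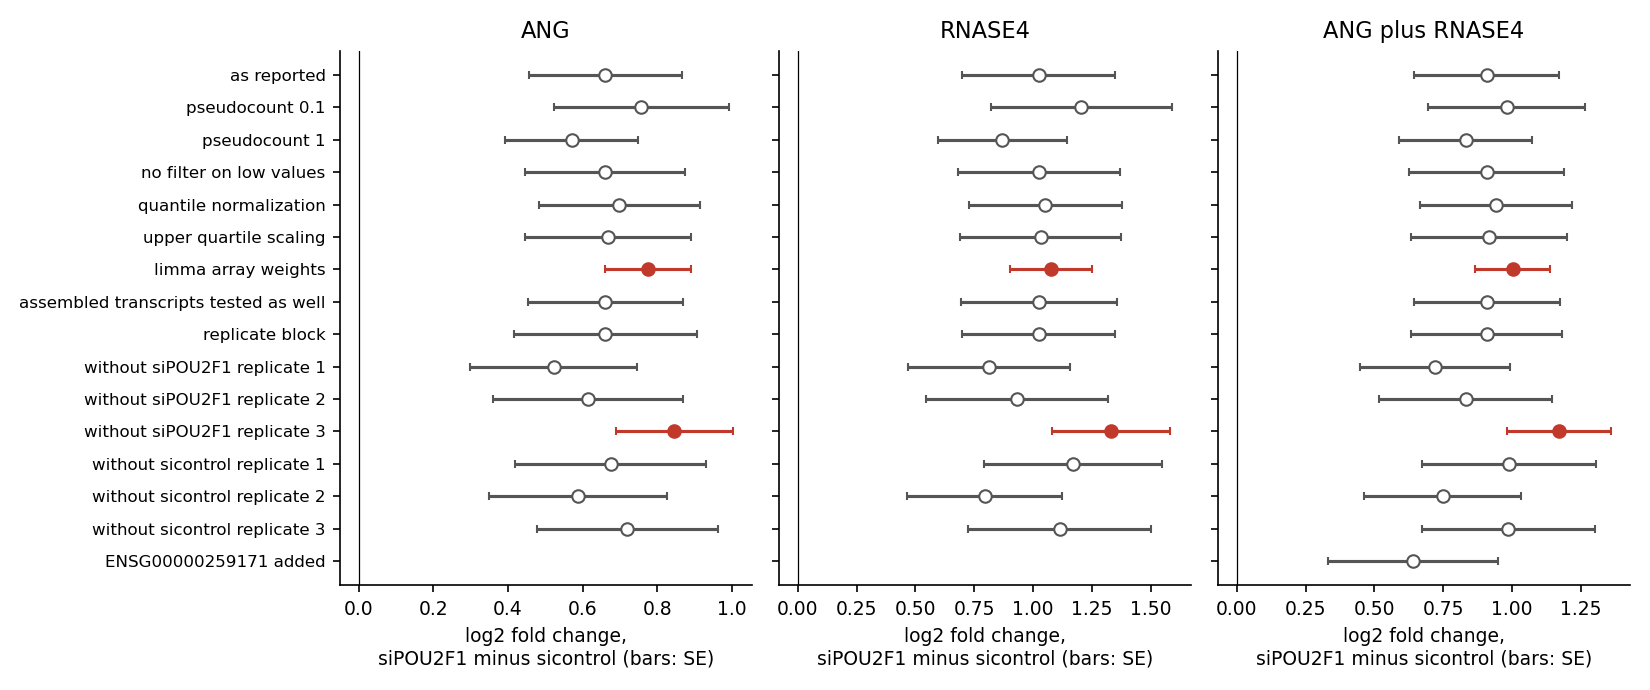
Log2 fold changes (siPOU2F1 minus sicontrol, bars give the SE) of ANG, RNASE4 and their sum under each setting tried, filled red where the limma adjusted p was under 0.05. All values shown are positive, but most settings could not turn the sign, since the groups of ANG, RNASE4 and their sum do not overlap. Of the settings shown only library weights and the removal of siPOU2F1 replicate 3 gave calls.

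RNH1, the inhibitor, was abundant in both groups. RNH1 (ENSG00000023191; chromosome 11, 494512 to 507300, minus strand) measured 45.6, 35.2 and 45.8 FPKM in siPOU2F1 replicates 1 to 3, against 33.2, 45.2 and 40.6 FPKM in sicontrol replicates 1 to 3. The highest and lowest libraries of the groups interleaved. The means were 42.2 ± 6.05 FPKM in siPOU2F1 and 39.7 ± 6.05 FPKM in sicontrol (SD, n = 3 each), and the log2 fold change of 0.09 had a 95% interval of -0.29 to 0.47 (limma, adjusted p = 0.771). Without sicontrol replicate 1 it was -0.032. Between libraries RNH1 varied 1.38-fold at most, the least of the 5 genes, whereas RNASE4 varied 5.25-fold, RNASET2 2.67-fold, ANG 2.45-fold and SLFN11 2.34-fold.

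Set against its targets within a library, RNH1 RNA exceeded the sum of ANG and RNASE4 everywhere. In FPKM it was 5.0, 4.56 and 9.87 times that sum in siPOU2F1 replicates 1 to 3, against 8.46, 17.0 and 10.4 times in sicontrol replicates 1 to 3. The multiple was lowest in siPOU2F1 replicates 1 and 2, and siPOU2F1 replicate 3 lay within the sicontrol range. On the log2 scale the difference between RNH1 and the sum averaged 2.52 ± 0.571 in siPOU2F1 and 3.34 ± 0.471 in sicontrol (SD, n = 3 each), 0.82 lower in siPOU2F1 (exact two-sided permutation p = 0.2). The plain multiple within a library does not depend on scaling between libraries, but the log2 difference does in part, through the added 0.5 FPKM. The gap between the groups was -0.89 with 0.1 FPKM added instead and -0.74 with 1 FPKM. Both measures concern RNA, not protein.

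RNASET2 varied between libraries within both groups. RNASET2 (ENSG00000026297; chromosome 6, 166929504 to 166957191, minus strand) measured 7.17, 7.43 and 3.02 FPKM in siPOU2F1 replicates 1 to 3, against 7.79, 3.03 and 8.07 FPKM in sicontrol replicates 1 to 3. Thus siPOU2F1 replicate 3 and sicontrol replicate 2, the libraries that lay highest on the first principal component, were low and nearly equal, and the other 4 lay close together. The means were 5.87 ± 2.48 FPKM in siPOU2F1 and 6.30 ± 2.83 FPKM in sicontrol (SD, n = 3 each), with a log2 fold change of -0.08 and a wide 95% interval of -1.12 to 0.97 (limma, adjusted p = 0.934). The direction turned when siPOU2F1 replicate 3 (0.31), sicontrol replicate 1 (0.12) or sicontrol replicate 3 (0.14) was left out, and the value was -0.49 without sicontrol replicate 2. An overlapping gene on the same strand, ENSG00000249141, which shares 20.9% of the exonic bases of RNASET2, was listed at 1.18 FPKM in sicontrol replicate 2 and at 0 in the other 5 libraries. Adding it, after its values were seen, moved the log2 fold change to -0.21 (limma, adjusted p = 0.766).

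SLFN11 was barely expressed and was not tested, since its mean fell below 1 FPKM. SLFN11 (ENSG00000172716; chromosome 17, 35350305 to 35373701, minus strand) measured 0.944, 0.884 and 0.520 FPKM in siPOU2F1 replicates 1 to 3, against 0.765, 0.629 and 1.22 FPKM in sicontrol replicates 1 to 3. The groups overlapped, with the lowest library among siPOU2F1 and the highest among sicontrol. Its log2 difference, siPOU2F1 minus sicontrol, was -0.09 (exact two-sided permutation p = 0.8). The difference turned positive without siPOU2F1 replicate 3 (0.067) or sicontrol replicate 3 (0.085).

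Apart from ANG, RNASE4 and RNASE1, the RNase A family was nearly silent in these cells. Of its 13 genes, 3 averaged at least 1 FPKM, and 5 were listed at 0 in every library, among them RNASE2 and RNASE3, which encode the eosinophil ribonucleases. RNASE1, the pancreatic-type ribonuclease and also a target of RNH1, measured 1.44, 2.64 and 0.388 FPKM in siPOU2F1 replicates 1 to 3, against 0.563, 0.675 and 2.05 FPKM in sicontrol replicates 1 to 3. These values overlapped widely (limma log2 fold change 0.25, adjusted p = 0.805). None of RNASE6, RNASE7, RNASE8, RNASE10 and RNASE13 exceeded 0.219 FPKM in any library.

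Among the 7 Schlafen genes the 1 tested was SLFN5, which measured 11.1, 16.0 and 30.5 FPKM in siPOU2F1 replicates 1 to 3, against 21.7, 29.6 and 23.0 FPKM in sicontrol replicates 1 to 3. SLFN5 was thus high in siPOU2F1 replicate 3 and low in the other siPOU2F1 libraries, and its log2 fold change of -0.47 was not called (limma, adjusted p = 0.471). It exceeded SLFN11 by between 11.7 and 58.5 times in siPOU2F1 libraries and between 18.9 and 47.0 times in sicontrol libraries, in FPKM. SLFN13, a Schlafen protein known to cut tRNA and ribosomal RNA, stayed at or below 0.107 FPKM in siPOU2F1 and 0.143 FPKM in sicontrol libraries.

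Among 9 other nucleases that cut tRNA or its precursors, 7 were tested and 1 was called, lower in siPOU2F1, against 0.845% of all genes called in that direction. DICER1, the RNase III enzyme of microRNA production that also makes some tRNA fragments, fell to 7.78, 6.96 and 6.88 FPKM in siPOU2F1 replicates 1 to 3, against 13.7, 14.4 and 13.9 FPKM in sicontrol replicates 1 to 3 (limma log2 fold change -0.92, adjusted p = 0.0223). Its log2 fold change stayed between -0.97 and -0.89 with any 1 library left out, but the call was kept only without siPOU2F1 replicate 3. The other 5 removals gave DICER1 adjusted p-values of 0.0934 to 0.169 (limma), in fits that called only 0 to 9 genes in all. RPP30, a protein of RNase P, which trims the leader of precursor tRNA, measured 13.99, 18.7 and 21.9 FPKM in siPOU2F1, against 35.3, 32.2 and 29.6 FPKM in sicontrol replicates 1 to 3 (-0.83, limma adjusted p = 0.0759). The median log2 fold change of the 7 was -0.21, beside -0.01 for all tested genes.

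The tested genes around angiogenin's uptake and the handling of cut tRNA held no call. Of its surface partners, EGFR, a receptor that angiogenin can bind, had means of 28.6 ± 6.08 FPKM in siPOU2F1 and 51.9 ± 4.57 FPKM in sicontrol (SD, n = 3 each; log2 fold change -0.87, limma adjusted p = 0.0622) without overlap. PLXNB2, its plexin receptor, had 28.7 ± 2.00 FPKM in siPOU2F1 and 32.8 ± 0.727 FPKM in sicontrol (-0.19, limma adjusted p = 0.340), also without overlap. SDC4, a syndecan that carries heparan sulfate, had 706 ± 160 FPKM in siPOU2F1 and 460.0 ± 93.3 FPKM in sicontrol (0.61, limma adjusted p = 0.219), with overlap. Of all tested genes, 23.4% did not overlap in either direction.

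Of 6 tested genes for tRNA methylation or its removal, 5 had negative log2 fold changes and 0 were called, with a median of -0.46. Of all tested genes, 48.5% had positive log2 fold changes. NSUN2 and TRDMT1 encode cytosine methyltransferases whose marks shield tRNA from angiogenin. TRDMT1 measured 0.604, 0.798 and 0.855 FPKM in siPOU2F1 replicates 1 to 3, against 1.76, 1.43 and 1.08 FPKM in sicontrol replicates 1 to 3 (-0.61, limma adjusted p = 0.201). NSUN2 measured 25.5, 23.3 and 61.9 FPKM in siPOU2F1, against 49.4, 70.6 and 49.0 FPKM in sicontrol replicates 1 to 3 (-0.73, limma adjusted p = 0.336). NSUN2 overlapped between the groups, since siPOU2F1 replicate 3 was high. TRDMT1 did not overlap, but it reached the mean of 1 FPKM only through the sicontrol libraries, so its place among the tested genes depends on its being higher there. The count and median above include TRDMT1.

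RNA end healing, the repair of cut ends, had 3 positive and 4 negative values among 7 tested genes, a median of -0.06 and 0 calls. CNP, a cyclic nucleotide phosphodiesterase, had 0.69 (limma adjusted p = 0.164), and TRPT1, a phosphotransferase acting on tRNA splice junctions, -0.24 (adjusted p = 0.258). The list of partners of tRNA fragments, stress granule proteins and the apoptosome scaffold had 6 positive and 4 negative values among 10, a median of 0.11 and 0 calls. G3BP2, a core stress granule protein, had 0.72 (limma adjusted p = 0.0576) and APAF1, the apoptosome scaffold, -0.85 (adjusted p = 0.0536). In lysosomal nucleic acid turnover, 5 of 6 tested genes were positive, against 48.5% of all tested genes. The exception was RNASET2 itself, and the list had a median of 0.23 and 0 calls. PLD3, a lysosomal exonuclease, had 0.55 (limma adjusted p = 0.207) and DNASE2, the acid DNase, 0.35 (adjusted p = 0.229). Groups did not overlap for 1 higher and 1 lower gene in end healing, and for 2 higher and 1 lower in the list with G3BP2. In the lysosomal list 3 genes were higher without overlap and 0 lower. Those counts include every gene named in this paragraph except RNASET2. Of all tested genes, 23.4% did not overlap in either direction.

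**Figure D4:**
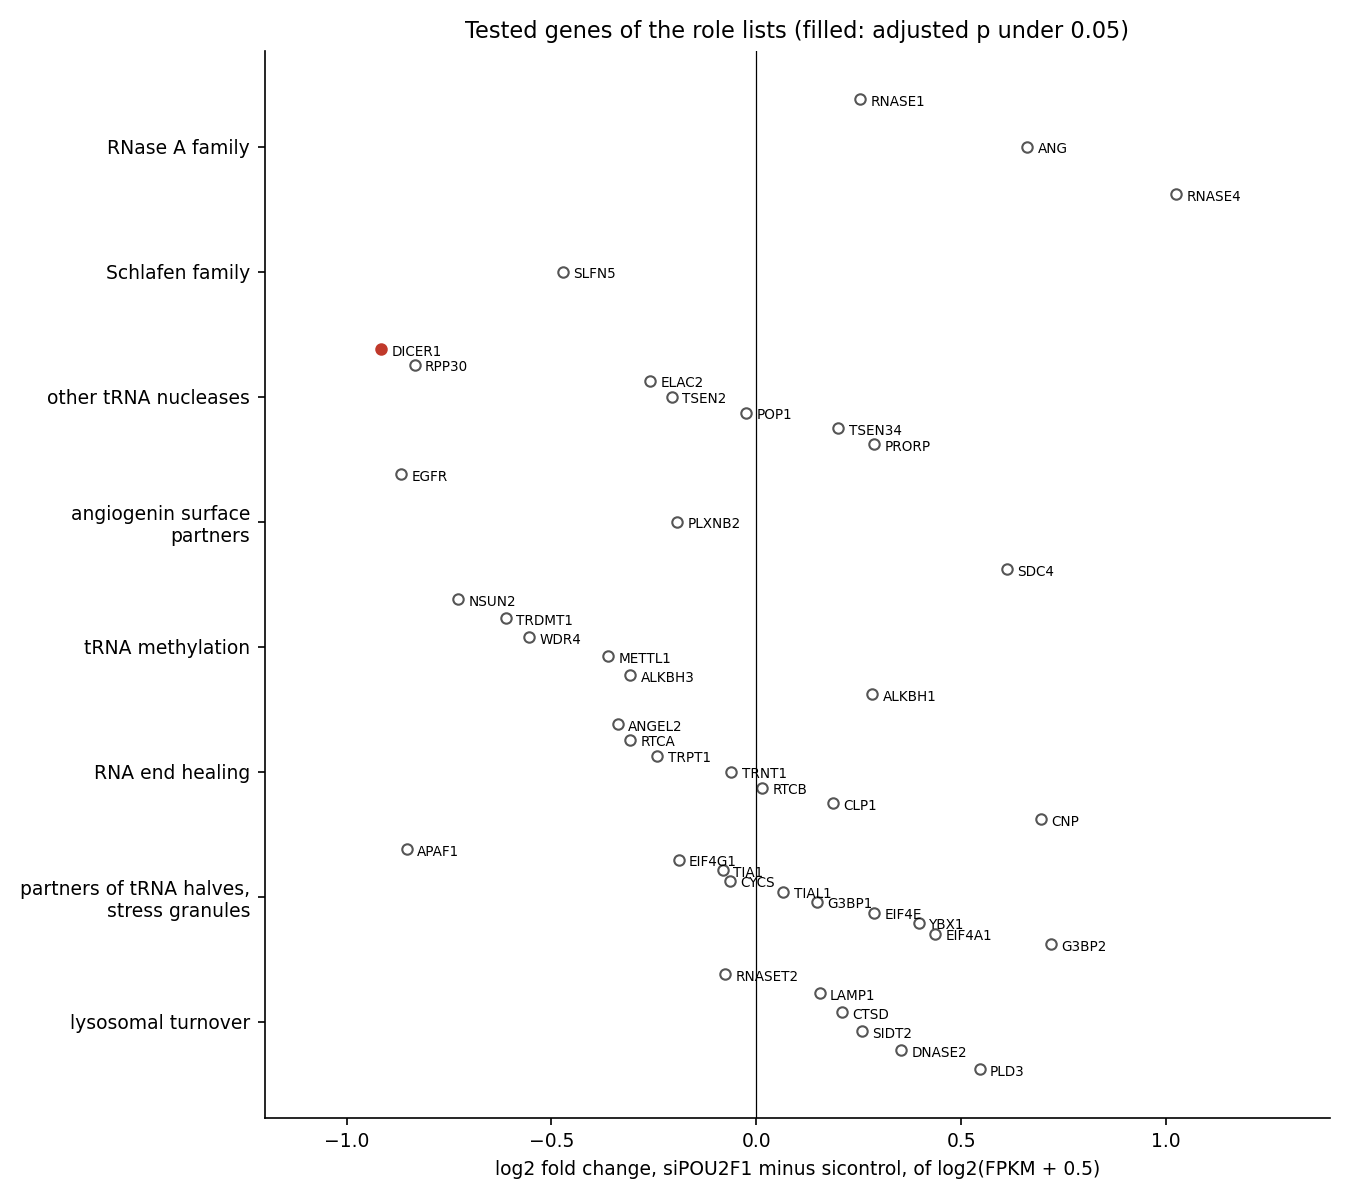
Each point is the log2 fold change (siPOU2F1 minus sicontrol) of 1 tested gene in the role lists, filled red where the limma adjusted p was under 0.05. DICER1 is the single filled point, RNASE4 and ANG lie furthest right in the RNase A family, and 5 of the 6 tRNA methylation genes lie left of 0. Of all tested genes, 48.5% had positive values.

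The nearest tested neighbours given here were not called. Leaving out the genes that overlap it, the nearest tested genes to ANG were RNASE1, 102 kb beyond it, and PNP, a purine nucleoside phosphorylase, 207 kb before it. PNP measured 23.7, 17.9 and 23.6 FPKM in siPOU2F1, against 24.3, 26.4 and 21.8 FPKM in sicontrol replicates 1 to 3 (log2 fold change -0.16, limma adjusted p = 0.566). RNH1 lies between PTDSS2 and HRAS, with -0.24 (limma adjusted p = 0.349) and -0.28 (adjusted p = 0.498). RNASET2 lies between RPS6KA2 and CEP43, with 0.10 (limma adjusted p = 0.768) and -0.15 (adjusted p = 0.631).

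Over the 6 libraries, ANG and RNASE4 correlated at r = 0.98 (Pearson, log2 scale), a description only, since they share exonic bases, libraries and groups. The tested genes most like ANG were SHROOM2, CDC5L and KRT74, at r = 0.997, 0.997 and 0.995, and 313 of 11830 genes reached 0.95. Those most like RNASE4 were WEE1, MITD1 and PIGL, and 298 genes reached 0.95. RNH1 had few matches, 7 genes at 0.95, led by ADCK5, ZNF296 and NGDN. RNASET2 was most like UGP2, RAB37 and EVI5L, with 114 genes at 0.95. RAB37, a small GTPase of secretory vesicles, showed the same library pattern at 4.37, 4.35 and 2.42 FPKM in siPOU2F1 replicates 1 to 3, against 4.73, 2.48 and 5.19 FPKM in sicontrol replicates 1 to 3.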

How the data were processed

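Each library came as a deposited list of FPKM values over the same 22782 features, of which 20474 are annotated genes and 2308 are assembled transcripts without a gene name. Build hg38 and the tools StringTie 2.1.2, HISAT2 2.0.4 and Bowtie2 2.2.5 appear, without roles, in the submitters' processing notes. Per the labels, the library kit was a directional one. The sources used here give no annotation release, filter or strand setting. Since FPKM keeps no counts, the absolute depth is unknown. Low values put the depth of the libraries at 0.78 to 1.00 of that of sicontrol replicate 1, from 10 to 20 genes each, so precision rests on 3 libraries per group.

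Values were used as deposited, as log2(FPKM + 0.5), which understates the change of low genes. The 11831 annotated genes whose mean reached 1 FPKM were fitted with limma 3.58.1 in R 4.3.3 (group as sole term, mean-variance trend, Benjamini-Hochberg over all tested genes, called at an adjusted p under 0.05). The sum of ANG and RNASE4 replaced both genes in a separate fit. Sums of FPKM depend on the length used for each gene. Single values were compared with exact two-sided permutation tests. The fit was tested on simulated data whose errors were independent between libraries and, for each gene, equal in spread across them. Those data held no outlying library, so that test does not cover the dependence on siPOU2F1 replicate 3. Gene positions came from GENCODE release 29 (basic set) and tRNA genes and start windows from RefSeq, 1-based. The nearest tested gene on each side within 250 kb, the 3 tested genes of highest correlation with each tested member, and up to 4 genes of lowest p per role list could be named, and a few others were named after their values were seen. The 5 genes and the role lists were chosen with earlier results of these data known. Alternatives covered the pseudocount, the filter, scaling, library weights, assembled transcripts, a replicate block and each library left out. Python 3.11.15 was used for the rest. Some genes of the lists and neighbourhoods are not reported here.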

Additional observations from a re-analysis of the deposited data

How the results depend on the processing

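The log2 fold changes of ANG, RNASE4 and their sum were positive under every alternative run. As their groups did not overlap, no pseudocount, filter, weighting, block or removal of a library could turn that sign. With ENSG00000259171 added the groups overlapped, and that wider sum ranged from 0.43 to 0.97 with 1 library left out. ANG, RNASE4 and their sum passed the threshold with library weights (0.78, 1.08 and 1.00, with siPOU2F1 replicate 3 weighted least, in a fit that called 5963 genes, 50.4%) and without siPOU2F1 replicate 3. Left out 1 library at a time, ANG ranged from 0.52 to 0.85, RNASE4 from 0.79 to 1.33, the sum from 0.72 to 1.17, RNH1 from -0.032 to 0.21, RNASET2 from -0.49 to 0.31 and POU2F1 from -1.06 to -0.95. The direction of RNASET2 also turned with library weights (0.031). POU2F1 stayed at -0.99 but was no longer called with no filter on low values (limma, adjusted p = 0.0650) or with a replicate block (adjusted p = 0.297). The count of called genes was 147 as reported, 72 with no filter, 0 with a replicate block (1208 at an unadjusted p under 0.05) and 0 to 2990 with 1 library left out. Same-numbered libraries deviated from their group means with correlations of 0.13, -0.54 and -0.51. Deviations from means of 3 libraries cannot settle whether the numbers pair them. The block changed no call of the 5 genes, but 0 of the 4 tested were called as reported and the block fit called 0 genes in all. RNH1 against the sum ranged from -1.15 to -0.56, the ANG share from -11.1 to -4.27 percentage points and SLFN11 from -0.22 to 0.085 with 1 library left out. A filter at 5 FPKM removed ANG and RNASE4 and so gave no value for them, and scaling, weights and assembled transcripts gave none for SLFN11. The causes were not tested, and absolute depth is unknown.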
